A study of Oryctolagus cuniculus with 57 samples.

Results

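Ileal expression of 6 genes of tryptophan breakdown, IDO1, IDO2, KMO, KYNU, AADAT and HAAO, was followed in young rabbits around weaning. The genes were chosen as members of the pathway, and all 6 had a probe on the array that passed the filter on dim signals, among 9567 named genes with a probe, of which 7951 were tested. Most tryptophan that is not used for protein is broken down through the kynurenine pathway. IDO1 and IDO2 are dioxygenases that open the indole ring in the first step, KMO hydroxylates kynurenine, KYNU cuts kynurenine and 3-hydroxykynurenine, AADAT converts kynurenine into kynurenic acid by transamination, and HAAO oxidises 3-hydroxyanthranilate on the way to quinolinate and NAD. In mammals IDO1 is known as an enzyme that interferon gamma (IFNG) induces, and in the gut it lies between microbial signals and immune tolerance.

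The rabbits were commercial hybrids (PS Hyplus 19 × PS Hyplus 39) whose mothers' droppings were taken out of the nest. FFab pups were given pellets of unrelated does under tetracycline and tiamulin, FF pups pellets of unrelated does without antibiotics, and NF pups no pellets at all. Total RNA of the ileum was hybridised at day 49 (9 FFab, 9 FF and 9 NF rabbits) and at day 35, the age of weaning (10 FFab, 10 FF and 9 NF rabbits), 1 rabbit per 1-colour array. A 10th NF rabbit of day 35 (lap78 in the labels) was set aside by the study, and 56 arrays on 9 slides were compared. The pellets were given per nest, and the labels give neither litter nor sex, so the p-values measure the spread between these rabbits only.

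The members were read by 11 probes of 60 bases. The 2 IDO probes are shown first because the largest differences below rest on 1 probe for each gene. IDO1 and IDO2 are neighbouring genes with related proteins, and capitals mark the longest run of bases that their probes share, 6 bases. Aligned without gaps, the probes matched at no more than 21 of 60 bases. Neither was placed on the oryCun2 genome by the files.
IDO1: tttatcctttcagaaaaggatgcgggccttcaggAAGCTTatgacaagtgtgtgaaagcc
IDO2: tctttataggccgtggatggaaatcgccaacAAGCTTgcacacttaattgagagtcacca

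The 3 KYNU probes are shown because they did not give 1 answer. They lie end to end on the plus strand of chromosome 7 (oryCun2), the first at chr7:81336995-81337054, the next at chr7:81337055-81342086 and the last at chr7:81342087-81342146. The middle one covers a stretch of 5032 bp with its 60 bases, so its target is not contiguous in the genome. By the rule of the study, the probe of median level stood for a gene with several, which was the first one here.
KYNU first: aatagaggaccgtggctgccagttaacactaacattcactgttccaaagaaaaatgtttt
KYNU middle: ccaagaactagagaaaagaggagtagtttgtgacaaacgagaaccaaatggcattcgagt
KYNU last: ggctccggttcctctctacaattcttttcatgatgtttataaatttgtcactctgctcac

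The other members were read on the plus strand of chromosome 16 (KMO, 2 probes, read at chr16:31515545-31515604) and on chromosome 2 (AADAT, 3 probes on the minus strand, read at chr2:48123204-48123263, and HAAO, 1 probe on the plus strand at chr2:143384382-143386047). Over the 56 arrays the KMO probes correlated at r = 0.96 and the AADAT probes at 0.91 to 0.996, whereas the last KYNU probe correlated with the others at 0.47 and 0.53.

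Levels are given as normalized log2 intensity, so that 1 unit is a 2-fold difference. They compare rabbits for 1 probe and not 1 gene with another. The share of probes well above background lay between 68.2% and 85.7% per array, and no member correlated with it beyond r = -0.23 or 0.16. All probes of IDO1, KMO and AADAT and 2 of the 3 of KYNU were above background on the 56 arrays. HAAO missed it on 2 arrays, the middle KYNU probe on 10 and IDO2 on 33.

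Some arrays stood apart in a way that concerned the members. FABP6 and SLC10A2, the bile acid binding protein and the bile acid transporter that define the ileal enterocyte, lay more than 1 unit below the median of the 56 arrays in 8 rabbits: FFab lap173 and lap185 and NF lap206 at day 49, and FFab lap96, lap107 and lap109 and NF lap93 and lap113 at day 35. No FF rabbit was among them, and they were spread over 6 slides. In these 8, SLC10A2 was at 2.10 to 8.08 and FABP6 at 7.87 to 17.71, against 10.35 to 13.57 and 18.60 to 19.29 in the other 48. NF rabbit lap78, set aside by the study, had the same low levels (SLC10A2 2.57, FABP6 9.32). IDO1 was at 3.74 to 7.35 in the 8 rabbits (median 5.77) and at 4.84 to 15.49 in the 48 (median 12.93), and IDO2 did not exceed 3.01 in the 8. AADAT was the opposite, at 12.18 to 13.62 in the 8 and 10.21 to 12.31 in the 48. KMO, KYNU and HAAO overlapped widely between these samples. The 8 were found after the data were seen and form no group of the study. Fits and correlations without them are given beside the main ones below. The genes that picked them followed IDO1 over the 56 arrays (r = 0.76 for SLC10A2 and 0.62 for FABP6). FABP6 varied little among the other 48 (18.60 to 19.29), so its r rests mostly on the 8. Leaving them out thus takes away many of the lowest IDO1 levels, and p-values without them are descriptions. Why these rabbits were low was not tested.

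**Figure D1:**
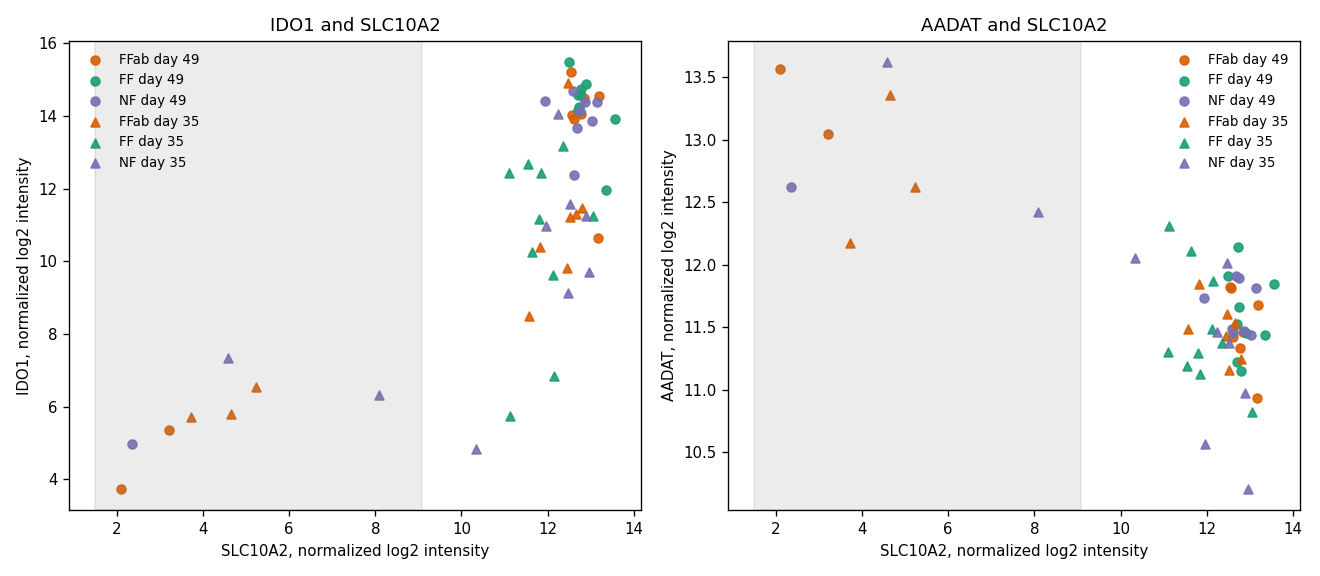
IDO1 (left) and AADAT (right) against the ileal bile acid transporter SLC10A2, all as normalized log2 intensity, 1 point per rabbit, with circles for day 49 and triangles for day 35 and a colour per treatment. The 8 rabbits in the shaded range, all FFab or NF, had IDO1 levels of 3.74 to 7.35 and AADAT levels of 12.18 to 13.62.

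Between the 2 ages, IDO1 of the entry step rose, and of the 4 later enzymes 1 rose and 1 fell. IDO2, the other dioxygenase, had higher readings at day 49 but was mostly not above background at day 35. Over all rabbits, day 49 was compared with day 35 by limma across the 7951 genes, and calls needed p < 0.05 after Benjamini-Hochberg adjustment and a change of more than 0.5 on the log2 scale. Of the 6 members 3 were called higher (IDO1, IDO2 and HAAO), 1 lower (KYNU) and 2 were not called (KMO and AADAT). IDO2 passed the filter on dim signals through FF rabbits of day 49 alone. Its call, here and in FF, is thus no support for a rise. Of all genes 3.48% were called (277 of 7951), 2.4% higher and 1.08% lower at day 49. The median change of the members was 0.49 and that of all genes was near 0 (-0.0047). In bulk tissue a change in the number of cells and a change in RNA per cell cannot be told apart.

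**Figure D2:**
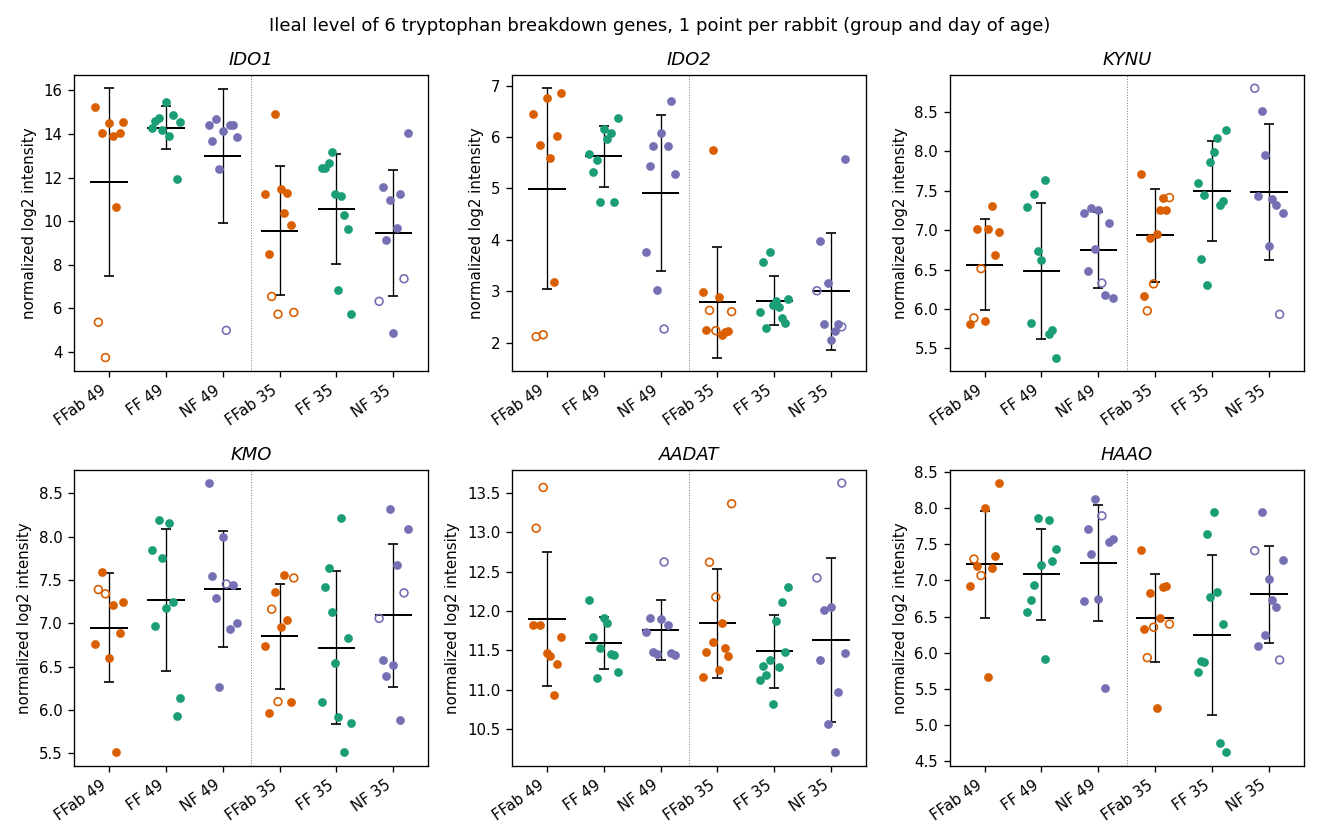
Normalized log2 intensity of the 6 members, 1 point per rabbit, with the group mean (line) and SD (bar), day 49 left of the dotted line and day 35 right of it, and FFab, FF and NF in that order. Open points are the 8 rabbits low in FABP6 and SLC10A2. IDO1 lay between 11.95 and 15.49 in FF rabbits at day 49 and spread from 5.73 to 13.17 in FF rabbits at day 35.

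IDO1, the inducible dioxygenase, varied most among the members, over 11.75 units. At day 49 its lowest, median and highest levels were 3.74, 14.02 and 15.22 in FFab rabbits, 11.95, 14.57 and 15.49 in FF rabbits and 4.99, 14.14 and 14.70 in NF rabbits. At day 35 they were 5.73, 10.09 and 14.91 in FFab rabbits, 5.73, 11.21 and 13.17 in FF rabbits and 4.84, 9.70 and 14.04 in NF rabbits. Most rabbits of day 49 were thus at a high level in every treatment, whereas those of day 35 were scattered over the whole range, and the 2 ages overlapped in each treatment.

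In FF, 8 of 9 rabbits of day 49 were above every rabbit of day 35, in NF 5 of 9 and in FFab 1 of 9, where a single rabbit of day 35 (lap108) was at 14.91. The change over all rabbits was 3.16 ± 0.77 (SE), an 8.92-fold rise with an adjusted p of 0.00347, and no other gene of the 7951 had a higher estimate. With the slide as a block it was 3.12 (adjusted p = 0.0044), and within slides day 49 was higher on 7 of 9. Without the 8 rabbits low in the ileal genes it was 3.42 ± 0.54 with an adjusted p of 2.95e-05.

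The order of the group means was FF day 49, NF day 49, FFab day 49, FF day 35, FFab day 35 and NF day 35. No neighbours in that order differed by more than the larger of their SDs. The group SDs went up to 4.31 in FFab rabbits at day 49, where 2 of the 8 rabbits are, against 0.99 in FF rabbits at day 49. Without the 8, the SD in FFab rabbits at day 49 was 1.48, and the lowest level there was 10.66. The order was then FF, NF and FFab at day 49, followed by FFab, FF and NF at day 35.

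IDO2, the second dioxygenase, was near the limit of detection. Its probe was above background on 6 of 9 FFab, 8 of 9 FF and 6 of 9 NF arrays at day 49, and on 1 of 10 FFab, 0 of 10 FF and 2 of 9 NF arrays at day 35. At day 49 the lowest, median and highest levels were 2.11, 5.85 and 6.86 in FFab rabbits, 4.74, 5.68 and 6.38 in FF rabbits and 2.26, 5.43 and 6.71 in NF rabbits. At day 35 they were 2.15, 2.42 and 5.74 in FFab rabbits, 2.29, 2.71 and 3.76 in FF rabbits and 2.04, 2.36 and 5.57 in NF rabbits. In FF rabbits all 9 readings of day 49 were above all 10 of day 35, and in FFab and NF the ages overlapped. No FF array of day 35 was above background. The separation thus sets readings of day 49 against background and is no support for a result particular to FF. Ages that do not overlap were found for 0.704% of all genes in FF (56 of 7951), against 0 genes in FFab and 0.0377% in NF (3 of 7951), and the FF minus NF difference for IDO2 did not pass its test, given below.

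The probe met the filter on dim signals through FF rabbits of day 49 alone, its highest group, so its place among the genes tested is no support for a difference. The fit over all rabbits gave 2.31 ± 0.32 (SE, adjusted p = 1.26e-06), with only 20 of 27 arrays of day 49 and 3 of 29 of day 35 above background, so this is no exact size. Day 49 was higher on 9 of 9 slides. Because it was not above background on any FF array of day 35, the FF change is a bound. FF rabbits at day 49 were at least 2.39-fold higher than FF rabbits at day 35 when the dim arrays were set to the lowest signal well above background. The measured means were 5.63 and 2.81. The adjusted p of 0.000695 by limma comes from these measured readings, those under background included, so it does not test the bound. The size of the estimate depended on the background correction: over all rabbits it was 0.92 from the median spot signal without correction and 0.64 after normexp, both called. By group mean the order of IDO2 was FF, FFab and NF at day 49, then NF, FF and FFab at day 35. Among neighbours in it, NF rabbits of day 49 were 1.91 above those of day 35, more than the larger SD (1.52), and the other steps were within it.

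KMO, the hydroxylase of kynurenine, was detected on every array and did not pass the test. Its lowest, median and highest levels at day 49 were 5.51, 7.21 and 7.59 in FFab rabbits, 5.93, 7.25 and 8.19 in FF rabbits and 6.26, 7.44 and 8.62 in NF rabbits. At day 35 they were 5.96, 7.0 and 7.55 in FFab rabbits, 5.52, 6.69 and 8.22 in FF rabbits and 5.89, 7.06 and 8.32 in NF rabbits. The ages overlapped in each treatment, and the change over all rabbits was 0.32 with a 95% interval of -0.08 to 0.71 (adjusted p = 0.317 by limma).

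KYNU, the kynureninase, was the member that fell. At day 49 its lowest, median and highest levels were 5.80, 6.69 and 7.31 in FFab rabbits, 5.38, 6.62 and 7.64 in FF rabbits and 6.15, 6.76 and 7.28 in NF rabbits. At day 35 they were 5.98, 7.10 and 7.71 in FFab rabbits, 6.30, 7.53 and 8.27 in FF rabbits and 5.93, 7.40 and 8.80 in NF rabbits. The ages overlapped, but 8 of 9 FFab, 8 of 9 FF and 9 of 9 NF rabbits of day 49 lay below the median of their treatment at day 35.

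The change over all rabbits was -0.71 ± 0.18 (SE, adjusted p = 0.00453 by limma), a ratio of 0.612 between day 49 and day 35. Day 49 was lower on 8 of 9 slides, and without the 8 rabbits low in the ileal genes the change was -0.72. It depended on the probe. Among all 31722 probes kept, the middle probe fell by 1.29 ± 0.31 (adjusted p = 0.00348), and the last one had a change of -0.19 ± 0.10 (adjusted p = 0.226). In FF rabbits these changes were -1.80 for the middle probe, -1.01 for the first and -0.28 for the last. Which transcripts of KYNU each probe reads was not tested.

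**Figure D3:**
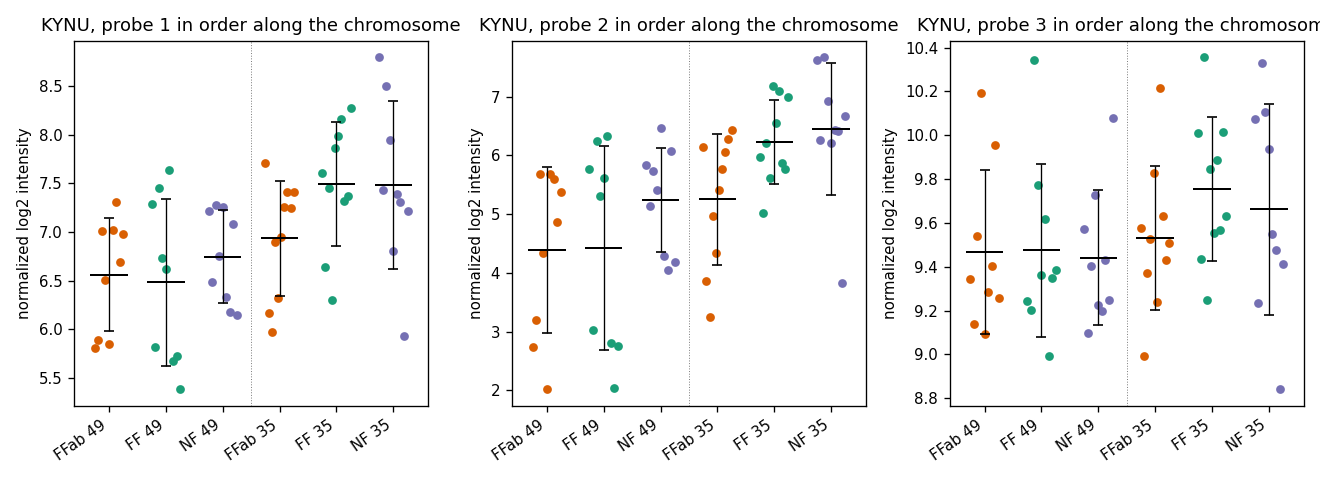
Normalized log2 intensity of the first, middle and last KYNU probe in order along chromosome 7, 1 point per rabbit, with the group mean (line) and SD (bar), day 49 left of the dotted line and FFab, FF and NF in that order. In FF rabbits the changes of the 3 probes were -1.01, -1.80 and -0.28 on the log2 scale (day 49 minus day 35).

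AADAT, the aminotransferase that yields kynurenic acid, did not pass the test between the ages. Its lowest, median and highest levels at day 49 were 10.94, 11.68 and 13.57 in FFab rabbits, 11.15, 11.53 and 12.15 in FF rabbits and 11.44, 11.73 and 12.62 in NF rabbits. At day 35 they were 11.16, 11.57 and 13.36 in FFab rabbits, 10.82, 11.33 and 12.31 in FF rabbits and 10.21, 11.46 and 13.62 in NF rabbits. The highest rabbits in the FFab and NF groups were among the 8 low in FABP6 and SLC10A2. The change over all rabbits was 0.10 with a 95% interval of -0.26 to 0.45 (adjusted p = 0.801 by limma), and 0.18 ± 0.12 without the 8.

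HAAO, the dioxygenase of 3-hydroxyanthranilate, was the other member that rose. At day 49 its lowest, median and highest levels were 5.67, 7.20 and 8.34 in FFab rabbits, 5.91, 7.22 and 7.87 in FF rabbits and 5.52, 7.53 and 8.12 in NF rabbits. At day 35 they were 5.24, 6.44 and 7.42 in FFab rabbits, 4.62, 6.14 and 7.95 in FF rabbits and 5.90, 6.73 and 7.94 in NF rabbits. The ages overlapped in each treatment. The change over all rabbits was 0.67 ± 0.20 (SE, adjusted p = 0.0194 by limma), a 1.59-fold rise, and day 49 was higher on 8 of 9 slides. Without the 8 rabbits low in the ileal genes it was 0.60 and no longer called (adjusted p = 0.0875), and with the median spot signal, normexp or the authors' table it was 0.43 to 0.49, under the fold threshold. KMO, KYNU, AADAT and HAAO had, in the order of their 6 group means, no neighbours further apart than the larger of their SDs.

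The treatments asked whether pellets of foreign does, with or without antibiotics, went along with another course between the ages. In FF rabbits 2 of the 6 members were called, with 4.31% of all genes (343 of 7951), 2.82% higher and 1.5% lower at day 49. They were IDO2, with the bound given above and a call that is no support for a rise, and KYNU. KYNU fell by 1.01 ± 0.31 (SE, adjusted p = 0.0297). IDO1 in FF had a change of 3.73 ± 1.32 (SE, adjusted p = 0.0714), and 6 of 13 alternatives called it, with adjusted p of 0.00331 to 0.0881 over the 13. Without the 8 rabbits low in the ileal genes it was 3.73 ± 0.86 (adjusted p = 0.00331). None of the 8 is an FF rabbit, and the fit takes 1 spread over all groups, so the estimate stayed and its SE became smaller. The FF call of KYNU was lost when any 1 of 7 FF rabbits was left out (lap82, lap87 or lap90 of day 35, lap159, lap209, lap212 or lap213 of day 49), with changes of -0.96 to -0.88 and adjusted p up to 0.0767.

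In FFab rabbits 0 of the 6 members were called by limma, and 0.0755% of all genes (6 of 7951). An unadjusted p under 0.05 was found for 2 members (IDO2 and HAAO) and 8.39% of all genes. The change of IDO1 was 2.22 ± 1.32, that of IDO2 2.21 ± 0.55 (adjusted p = 0.107, 1 of 10 arrays of day 35 above background) and that of KYNU -0.37 ± 0.31. Without the 8 rabbits, 5 of them FFab, the fit called IDO2 in FFab (2.90 ± 0.54, adjusted p = 0.0104), and not IDO1 (2.76 ± 1.0, adjusted p = 0.796). IDO2 in FFab was also called with the slide as a random block, with array weights and with the authors' table (4 of 12 alternatives, adjusted p of 0.00308 to 0.427 over the 12). In NF rabbits 0 of 6 members were called, and 0.0377% of all genes (3 of 7951), 0.0252% higher and 0.0126% lower at day 49. An unadjusted p under 0.05 was found for 3 members (IDO1, IDO2 and KYNU) and 6.02% of all genes. The changes in NF were 3.53 ± 1.36 for IDO1, 1.91 ± 0.56 for IDO2 and -0.74 ± 0.31 for KYNU.

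**Figure D4:**
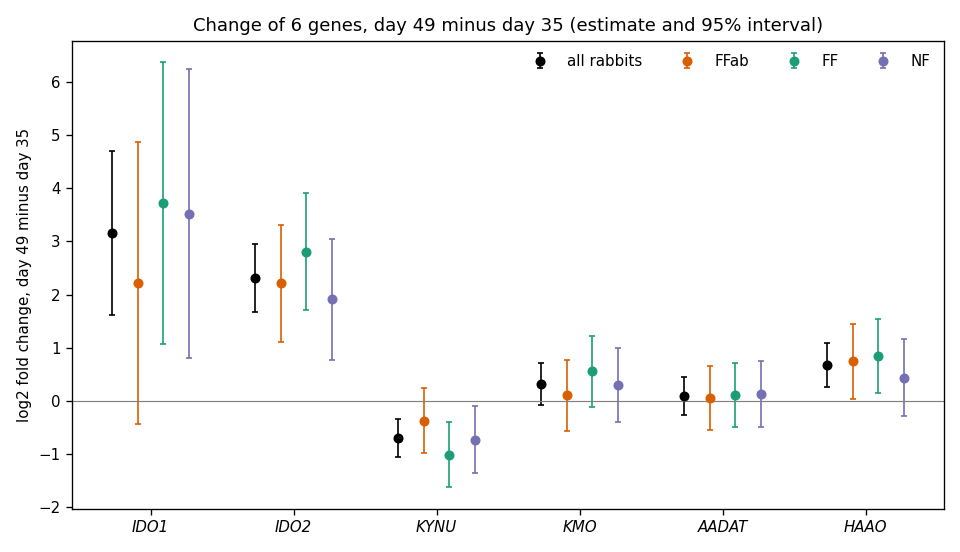
Change of each member between the ages, as log2 fold change of day 49 minus day 35 with its 95% interval from limma, over all rabbits and in FFab, FF and NF. IDO1 and IDO2 had positive estimates and KYNU negative ones in each treatment, and the intervals of the 3 treatments overlapped for every member. IDO2 was mostly not above background at day 35, so its estimates are no exact sizes.

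A call in FF and none in FFab or NF is not by itself a difference between treatments. None of the 18 tests of a difference in age change (6 members, 3 pairs of treatments) passed, and 0 had an unadjusted p under 0.05. Among all 7951 genes 0 were called in each of the 3 pairs as well, and 0.918% to 4.55% had an unadjusted p under 0.05, so this says nothing particular about the members. For IDO1 the FF minus NF difference was 0.20 with a 95% interval of -3.60 to 4.01, and the FFab minus FF difference was -1.51 (-5.27 to 2.24). For IDO2 they were 0.90 (-0.68 to 2.48) and -0.60 (-2.16 to 0.96), and for KYNU -0.28 (-1.16 to 0.60) and 0.64 (-0.23 to 1.51). When the 8 rabbits low in the ileal genes were left out, the differences for IDO1 were -0.05 ± 1.29 (FF minus NF) and -0.96 ± 1.31 (FFab minus FF). For IDO2 they were then 0.67 ± 0.70 and 0.09 ± 0.71, so the FFab minus FF estimate changed sign. The intervals over all arrays are wide enough to hold differences of several-fold for IDO1.

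At a given age no member passed a test between treatments. Of 18 tests at day 49 and 18 at day 35, 0 were called and 0 had an unadjusted p under 0.05. The smallest unadjusted p at day 49 was 0.0706, for IDO1 in FFab minus FF rabbits (-2.51, 95% interval -5.23 to 0.22), where 2 of the 9 FFab rabbits are among the 8 low in the ileal genes. Without the 8 it was -0.44 ± 0.94 (unadjusted p = 0.642). At day 35 it was 0.0658, for KYNU in FFab minus FF rabbits (-0.56, -1.16 to 0.04). Among all genes 0 were called at day 49 in any pair of treatments, and at day 35 the shares were 0.0377% for FF minus NF, 0.0126% for FFab minus FF and 0 for FFab minus NF. An unadjusted p under 0.05 was found for 1.14% to 2.31% of all genes at day 49 and for 2.06% to 7.72% at day 35.

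IFNG, the cytokine whose link to IDO1 was asked for, was itself dim. It was read from a probe added to the array for immune genes, whose name comes from the study's annotation and not from the array files. It was above background on 5 of 9 FFab, 7 of 9 FF and 8 of 9 NF arrays at day 49, and on 2 of 10 FFab, 2 of 10 FF and 6 of 9 NF arrays at day 35. Its lowest, median and highest levels were 2.56, 4.81 and 7.80 at day 49 and 2.39, 3.86 and 6.40 at day 35. IFNG had a change of 0.95 ± 0.27 over all rabbits (SE, adjusted p = 0.0118 by limma) and of 1.49 ± 0.46 in FF (adjusted p = 0.0347). Its probe met the filter on dim signals through FF and NF rabbits of day 49 alone. Its place among the genes tested is thus no support for a rise. With 20 of 27 arrays of day 49 and 10 of 29 of day 35 above background, these are no exact sizes.

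Across the 56 arrays, the levels of IDO1 and IFNG had a Pearson r of 0.25 (permutation p = 0.0614, adjusted over the 6 members 0.0921) and a Spearman rho of 0.39 (permutation p = 0.00315, adjusted 0.00945). The readings of both genes had a higher median at day 49, though those of IFNG at day 35 were mostly not above background. Within day 49 r was 0.0056 (n = 27, permutation p = 0.977) and within day 35 it was 0.13 (n = 29, permutation p = 0.506). On deviations from the 6 group means, r was 0.02 (permutation p = 0.901) and rho 0.08 (permutation p = 0.567). Within the 9 slides r ranged between -0.15 and 0.80 with a median of 0.24, and 6 were positive, with a smallest exact permutation p of 0.0708. Within groups, r was -0.13, 0.31 and -0.40 in FFab, FF and NF rabbits at day 49, and 0.52, 0.35 and -0.22 in FFab, FF and NF rabbits at day 35.

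Leaving out the 2 rabbits farthest from the median IFNG level (FF lap158 and NF lap170, both of day 49) gave r = 0.19 (permutation p = 0.157) and rho = 0.35 (permutation p = 0.00843). The 8 rabbits low in the ileal genes lay off the rest, with IDO1 at the bottom of its range and IFNG between 2.42 and 6.40. Without them r was 0.45 (n = 48, permutation p = 0.00143) and rho 0.59 (permutation p = 1e-05, the smallest these permutations can give), and on deviations from the group means r was 0.25 (permutation p = 0.0853). On deviations from the group means the relation did not pass the threshold with or without these 8.

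**Figure D5:**
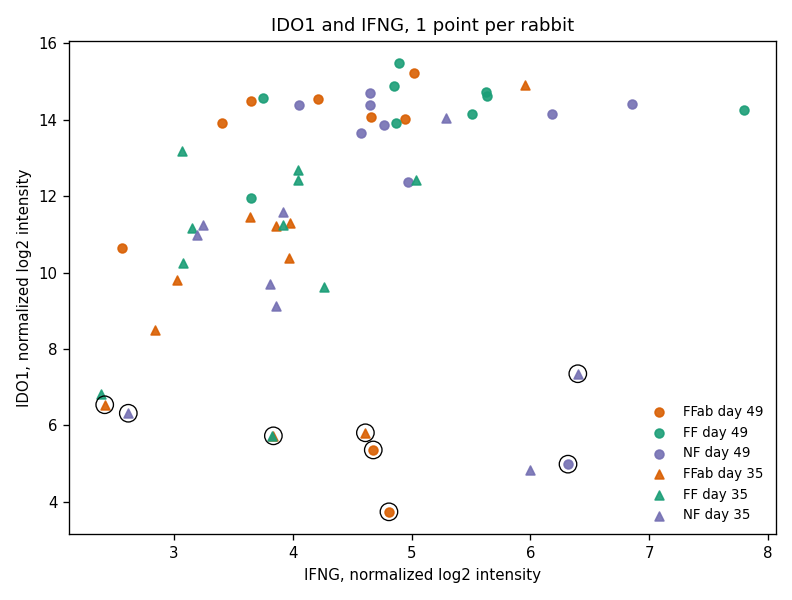
IDO1 against IFNG, both as normalized log2 intensity, 1 point per rabbit, with circles for day 49 and triangles for day 35 and a colour per treatment. Rings mark the 8 rabbits low in FABP6 and SLC10A2, 1 of them (FFab of day 35) nearly hidden by an FF rabbit. IDO1 was at 7.35 or less in all ringed rabbits, at IFNG levels of 2.42 to 6.40.

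Of the 6 members, KMO followed IFNG most closely, with r = 0.52 over levels (permutation p = 2e-05, adjusted 0.00012) and 0.45 on deviations from the group means (permutation p = 0.00098, adjusted 0.00588). AADAT had r = 0.34 on deviations (permutation p = 0.0215, adjusted 0.0645). IDO2 had r = 0.33 over levels (adjusted permutation p = 0.0395) and 0.02 on deviations. KYNU (r = -0.06) and HAAO (r = -0.10) did not pass on deviations.

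Of a list of IFNG signalling and its targets, 17 other genes were tested. With IFNG itself, 14 of the 17 correlated positively on deviations (median r = 0.52), among them TAP1 at 0.74. With IDO1 only 4 were positive (median r = -0.07), WARS1 highest at 0.73 and JAK2 lowest at -0.60. Without the 8 rabbits low in the ileal genes, 13 of 17 were positive with IDO1 (median r = 0.17), PSMB9 highest at 0.47, while WARS1 was at 0.17 and JAK2 at -0.14. With IFNG 15 of 17 were then positive (median r = 0.52). These are descriptions over arrays that share their groups.

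Of the 18 genes on that list, IFNG included, 10 were called higher over all rabbits (2.4% of all genes) and 0 lower (1.08%), with a median change of 0.61. They included the chemokines CXCL9, CXCL10 and CXCL11, UBD (a ubiquitin-like modifier, 1.84 ± 0.43), the transcription factor IRF1, the immunoproteasome subunits PSMB8 and PSMB9, the peptide transporter TAP1, and IFNG. IFNG, CXCL11 and CD274 (the last not called) passed the filter on dim signals through groups of day 49 alone. The calls of IFNG and CXCL11, here and in FF, are thus no support for a rise. WARS1, the tryptophanyl-tRNA synthetase that competes for the same amino acid, had 0.58 ± 0.26 (adjusted p = 0.141 by limma). In FFab rabbits 0 of the 18 were called (median 0.32, 0.0755% of all genes called). In FF rabbits 10 were called higher (median 1.02, 4.31% of all genes called), and in NF rabbits 0 were called (median 0.47, 0.0377%). No difference in age change between treatments was called for any of the 18. Of the 10 called in FF, 9 were also called over all rabbits, with B2M (0.58 ± 0.18, adjusted p = 0.0371) in place of CXCL9 (1.61 ± 0.54, adjusted p = 0.0529).

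Few other genes around tryptophan passed the test with age. KYAT3, an aminotransferase, and QPRT, which takes quinolinate a step towards NAD, were not called (0.07 each). TDO2, the hepatic dioxygenase of the first step, and ACMSD had probes that did not pass the filter. Of 4 genes of NAD salvage 0 were called over all rabbits, NAMPT being nearest at 0.47 ± 0.09 (adjusted p = 0.000368, below the fold threshold), and in FF rabbits NAMPT rose by 0.68 ± 0.16 (adjusted p = 0.005). Likewise 0 of 5 genes of serotonin synthesis and removal, 0 of 6 of tryptophan transport and 0 of 5 around the aryl hydrocarbon receptor, for which kynurenines are ligands, were called by limma. Of these, 0, 1 and 0 had an unadjusted p under 0.05 (SLC7A8, -0.70 ± 0.33), against 25.8% of all genes, of which 3.48% were called.

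Markers of cells that could carry these enzymes moved with age in part. Of 9 T and NK cell genes 3 rose over all rabbits (CD96, FASLG and PRF1, 0.60 to 0.73) and of 4 B and plasma cell genes 2 (IGHM and TNFRSF17). Of 6 dendritic and 6 macrophage genes 0 were called, with 2 and 2 at an unadjusted p under 0.05, and of 11 enterocyte genes 1 rose (ALPI, 0.74 ± 0.17). Of all genes 3.48% were called and 25.8% had an unadjusted p under 0.05. In FF rabbits, where 4.31% of all genes were called, 3 T and NK, 2 B and plasma and 1 enterocyte gene were called higher. A dendritic gene, XCR1, was also called there (0.86 ± 0.21, adjusted p = 0.00738 by limma), and 0 macrophage genes. The mean level of the T and NK cell list was 6.77 to 7.86, 7.01 to 8.04 and 7.23 to 7.87 in FFab, FF and NF rabbits at day 49, and 6.42 to 8.03, 6.67 to 7.51 and 6.91 to 7.88 in FFab, FF and NF rabbits at day 35. The part of these cells in the changes of IDO1 and IDO2 was not tested.

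The genes that varied most like each member were taken over the 56 arrays, on deviations from the group means and with no test. For IDO1 they were MAL (r = 0.88), TSPAN1, SLC44A4, NKIRAS1 and HOXB1, and at the other end ME1 (-0.87), ASRGL1 and SLC39A8. Without the 8 rabbits low in the ileal genes these r were 0.62 to 0.79 and -0.69 to -0.64. For IDO2 the first was IDO1 (r = 0.75, and 0.62 without the 8), then C17H15orf65, HSD11B1, PLXDC2 and HOXB6, and at the other end SLC39A8 and XPO5. The IDO2 probe was not above background on 33 of the 56 arrays, which limits what these r can show.

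KMO varied with CYTIP, IL16, CD38, ITGB2 (the common chain of the leukocyte integrins) and RAC2 (a small GTPase of blood cells), which had r of 0.89 to 0.90, and 0.90 to 0.92 without the 8, with PTPRA, PDGFC and PDZK1 at the other end. Against the mean level of the marker lists, KMO had r of 0.81 with B and plasma cells, 0.75 with dendritic cells and 0.66 with T and NK cells. It had 0.45 with secretory cells of the epithelium, 0.38 with macrophages and -0.37 with enterocytes. With endothelium, smooth muscle, red cells and hepatocytes its r was -0.22 to 0.10. AADAT went with TM4SF5, RGN, ITGA11, TEFM and COMMD8 (0.85 to 0.87) and against SLC6A14 (-0.85), an amino acid transporter, NR2F2 and CLDN8. Without the 8 these r were 0.65 to 0.76 and -0.75 to -0.59. The r of AADAT with IDO1 was -0.66, and -0.29 without the 8.

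KYNU and HAAO had no such close companions. The highest r for KYNU was 0.61, with the unnamed LOC100349167, followed by MFGE8, MMP9, CCL19 and ELL3, with VPS54 (-0.58), PGRMC2 and PPA1 at the other end. For HAAO it was 0.51, with ZMYM6, followed by ANKRD13B, LYG2, SCLY and COX20, with HAUS5 (-0.43), MPEG1 and MMGT1 at the other end. Between KYNU and IDO1, the members that changed in opposite directions with age, r was 0.06 on deviations and -0.16 without the 8.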

How the data were processed

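The authors deposited a Feature Extraction text file per array, with the intensity of each of 62976 spots (version 10.10.1.1 per the file headers, 10.7.3.1 in the submitters' processing notes), and their own normalized log2 table of 33284 probes, which served as an alternative. Here the deposited processed signal (background subtracted) was averaged over the unflagged spots of a probe, put on the log2 scale and quantile normalized over the 57 arrays. The filter on dim probes asked for 50% or more of the spots well above background on 75% or more of the arrays within any 1 group, which 31722 of 42089 probes met. Probes were named by accession, gene identifier, file name or the study's tables. Another probe that the files name IFNG shares an accession with HCST and was used only as an alternative. A gene was read from its probe of median level (7951 genes).

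limma 3.58.1 (R 4.3.3) fitted 1 mean for each of the 6 groups, with Benjamini-Hochberg adjustment. Correlations used 100000 permutations, within groups for deviations, or exact enumeration within slides (Python 3.11.15). All tests were two-sided, and the steps were tested on simulated data. A bound set each dim array to the higher of its own signal and the lowest probe well above background. The named genes were the members, genes called in fixed lists, IFNG, and the 5 highest and 3 lowest correlated genes per member. Some genes that this rule names are not reported here. Genes given beside these (WARS1, JAK2, KYAT3, QPRT, TDO2, ACMSD, SLC7A8) were picked after their values were seen. The members, lists and tests were chosen with earlier results of these data known. The number of arrays limits the precision. Leaving out the 8 rabbits, and the split by day, were chosen after seeing the data.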

Additional observations from a re-analysis of the deposited data

Results flagged for a closer look

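In 6 of 42 sets of group values for the members and IFNG, the highest or lowest rabbit lay far from the others by Dixon's criterion at 95%, which chance does in about 1 of 20 groups. IDO1 was lowest at 11.95 in FF rabbit lap212 of day 49 and at 4.99 in NF rabbit lap206 of day 49. NF rabbit lap206 also had the highest AADAT of its group, 12.62, and is 1 of the 8 rabbits low in FABP6 and SLC10A2. IDO2 was highest at 5.74 in FFab rabbit lap108 of day 35, which also had the highest IDO1 of day 35 (14.91). KMO was lowest at 5.51 in FFab rabbit lap201 of day 49. IFNG was highest at 7.80 in FF rabbit lap158 of day 49. No difference in age change between treatments passed for a member.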

How the results depend on the processing

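No paired analysis was possible because the rabbit numbers are not shared between groups. Over all rabbits, IDO1 stayed called with changes of 3.06 to 3.42 and IDO2 with 0.64 to 2.62. KYNU was -0.46 after normexp (under the fold threshold) and -0.19 with the brightest probe per gene (not called). HAAO was under the fold threshold from the median spot signal (0.49), after normexp (0.43) and in the authors' table (0.49), and missed the p threshold without the 8 rabbits low in FABP6 and SLC10A2 (0.60). In FF, KYNU was not called with the brightest probe (-0.28) or in a fit of the FF arrays alone (-1.01, adjusted p = 0.061). The members called over all rabbits were 2 after normexp. In FFab 1 (IDO2) was called with the authors' table, the slide as a random block, array weights and without the 8 rabbits. In FF 1 was called with the filter for signal on every array of a group, which dropped IDO2, and 1 with the brightest probe, whereas 3, IDO1 included, were called from the median spot signal, after normexp, in the authors' table, with array weights and without the 8 rabbits. In NF 1 (IDO2) was called with array weights. AADAT in NF, never called, was -0.090 with all 57 arrays.

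Leaving out 1 rabbit at a time gave 2.96 to 3.49 for IDO1 over all rabbits, 2.23 to 2.43 for IDO2, -0.77 to -0.65 for KYNU and 0.61 to 0.74 for HAAO, and these stayed called. In FF, KYNU was between -1.16 and -0.88 and 1 to 3 members were called, and in FFab 0 to 1 (IDO2, without FFab lap108 of day 35 or lap173, lap185 or lap201 of day 49). AADAT, never called, changed sign in FFab (-0.16 to 0.22) and in NF (-0.055 to 0.37). IDO1 in FF was called without NF lap206 or FFab lap185 of day 49.

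The r of IDO1 with IFNG was 0.30 with all 57 arrays (permutation p = 0.0256) and 0.45 without the 8 rabbits (permutation p = 0.00143). With the probe whose accessions name IFNG and HCST it was -0.0945 (permutation p = 0.488). That probe was above background on all 56 arrays, against 30 for the IFNG probe. Which of the genes it reads was not tested, so its r is no second reading of IFNG. The causes were not tested. Signals near background limit IDO2 and IFNG.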
